A study of Mus musculus with 8 samples.

Results

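Caspases are proteases that cut other proteins after aspartate, and transcripts of 7 mouse caspase genes, the apoptotic and inflammatory members Casp1, Casp2, Casp4, Casp6, Casp8, Casp9 and Casp12, were followed in control and Nir knockout embryonic epidermis. The 7 genes were chosen by name from the 23146 genes named in the count tables, and each was represented by the RefSeq transcript with the largest total count. Total RNA came from 8 libraries in 4 groups, with 2 libraries in each: control and knockout epidermis at embryonic days E15.5 and E17.5. Knockout embryos came from mice with floxed Nir alleles crossed to Krt14-Cre mice, and control embryos carried floxed Nir. Nir is the gene Noc2l, which encodes a nuclear protein known to bind p53 and to inhibit histone acetylation. The Krt14 promoter drives Cre in basal keratinocytes and other stratified epithelia, so cells of other types in a sample keep the gene. The labels state neither which exons are floxed, nor whether an embryo or a pool made a library, nor whether replicates came from separate litters, and p-values here measure only the spread between these libraries.

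Caspases are made as inactive precursors and are grouped by what switches them on. Initiator caspases (caspase-2, caspase-8 and caspase-9) are activated on large assemblies, the PIDDosome, the death receptor complex and the apoptosome, and they activate executioner caspases, which dismantle the cell and include caspase-6. Inflammatory caspases (caspase-1 and mouse caspase-4, which is also called caspase-11) are activated on inflammasomes or by bacterial lipopolysaccharide in the cytosol, and they cut the pore-forming protein gasdermin D. Caspase-12 belongs to the inflammatory group by sequence and has been linked in mice to the endoplasmic reticulum. In epidermis, loss of caspase-8 from keratinocytes is known in mice to cause skin inflammation, and caspase-14 serves cornification rather than death.

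All 7 genes lie on the plus strand of the mm10 (GRCm38) genome, and the inflammatory genes form a row on chromosome 9. Casp1 spans positions 5298517 to 5307281, Casp4 spans 5308849 to 5336791 and Casp12 spans 5345442 to 5373034, with 1567 bases between Casp1 and Casp4 and 8650 bases between Casp4 and Casp12. The others are apart from them: Casp2 lies on chromosome 6 (42264902 to 42282508), Casp6 on chromosome 3 (129901415 to 129914112), Casp8 on chromosome 1 (58795233 to 58847503) and Casp9 on chromosome 4 (141793612 to 141815978). The coding stretch around the catalytic cysteine shows how alike the 7 genes are where the enzyme works. Each stretch below has 27 coding bases, read 5′ to 3′ from GENCODE M21 transcripts, with the genomic span in brackets and the cysteine codon in capitals.
Casp1 (chr9:5303753-5304191): attattcaggcaTGCcgtggagagaaa
Casp4 (chr9:5324937-5327180): attgtgcaggccTGCagaggtgggaac
Casp12 (chr9:5353847-5354538): atcatgcaggccTGCagaggcagatat
Casp2 (chr6:42276764-42279781): ttcatccaagcaTGTcgtggagatgag
Casp8 (chr1:58844607-58844633): ttcattcaggctTGCcaaggaagtaac
Casp9 (chr4:141807241-141811543): ttcatccaggccTGCggtggtgagcag
Casp6 (chr3:129910690-129912135): atcatccaggccTGTcggggtagccag
The codon was TGC in 5 genes and TGT in 2, Casp2 and Casp6. In 6 of the 7 genes the stretch crossed an exon junction, and in Casp8 it lay within exon 8 of 9. Pairs of genes shared 13 to 20 of the 27 bases, and 20 were shared by Casp4 with Casp12 and by Casp9 with both Casp2 and Casp6. Whole transcripts were compared by exact 50-base words, which does not cover reads aligned with mismatches. No 50-base word of Casp1, Casp2, Casp4, Casp6, Casp9 or Casp12 occurred in a transcript of another gene, while 5.05% of those of Casp8 also occurred in Gm20257.

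The libraries held 25226357 to 28895657 counts over named genes, and the 7 caspases received between 37 and 1853 counts per library. Levels are given as CPM, the count normalised to a library size that edgeR's TMM method had scaled. The targeted gene was still measured in the knockout: Noc2l was at 97.4 to 107 CPM in the control and 91.6 to 95.6 CPM in the knockout at E15.5, and at 106 to 121 against 85.4 to 86.9 CPM at E17.5. The tissue was mixed. The summed level of 9 basal keratinocyte markers was 7120 to 7580 CPM in the control and 1970 to 2050 CPM in the knockout at E15.5, and 7680 to 7710 against 1150 to 1190 CPM at E17.5. Summed over 10 dermal fibroblast markers, the level was 31400 to 33300 CPM against 77600 to 96000 CPM at E15.5 and 27200 to 31400 against 98300 to 104000 CPM at E17.5. Markers of other cells that an epidermal sheet may carry were also higher in the knockout. Over 7 erythroid markers the sum was 3080 to 4210 against 17800 to 31200 CPM at E15.5 and 1170 to 1280 against 13300 to 14900 CPM at E17.5, and over 7 endothelial markers it was 454 to 465 against 752 to 777 CPM and 407 to 418 against 723 to 749 CPM. The 7 markers of periderm and simple epithelium summed to 121 to 150 against 2050 to 2100 CPM at E15.5 and to 36.0 to 41.8 against 609 to 802 CPM at E17.5. Over 7 skeletal muscle markers the sum was 8450 to 10800 against 15200 to 15400 CPM and 9780 to 10400 against 20800 to 27000 CPM, and over 7 melanocyte markers it was 305 to 311 against 546 to 635 CPM and 361 to 390 against 504 to 528 CPM. Their part in the caspase changes was not tested. T cell markers were low, summing to 2.52 to 6.42 CPM in any library. In such bulk samples, fewer cells of a type and less RNA per cell cannot be told apart.

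The caspases moved in opposite directions by class. Casp4 and Casp12 rose in the knockout at both stages, Casp1 rose at E17.5, and Casp2 and Casp6 fell at both stages, while Casp8 and Casp9 passed the test at neither. A gene was called risen or fallen when its adjusted p from edgeR's quasi-likelihood test, with Benjamini-Hochberg adjustment over all 16342 genes tested, was below 0.05. At E15.5, 4 of the 7 genes were called (57.1%), 2 risen and 2 fallen, against 45.5% of all genes tested, 23.2% risen and 22.3% fallen. At E17.5, 5 of the 7 were called (71.4%), 3 risen and 2 fallen, against 53.5% of all genes, 26.7% risen and 26.7% fallen. A count this near the background says little of the caspases as a group, and the median log2 fold change of the 7 was 0.05 at E15.5 and 0.21 at E17.5, against -0.005 and -0.023 over all genes.

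**Figure D1:**
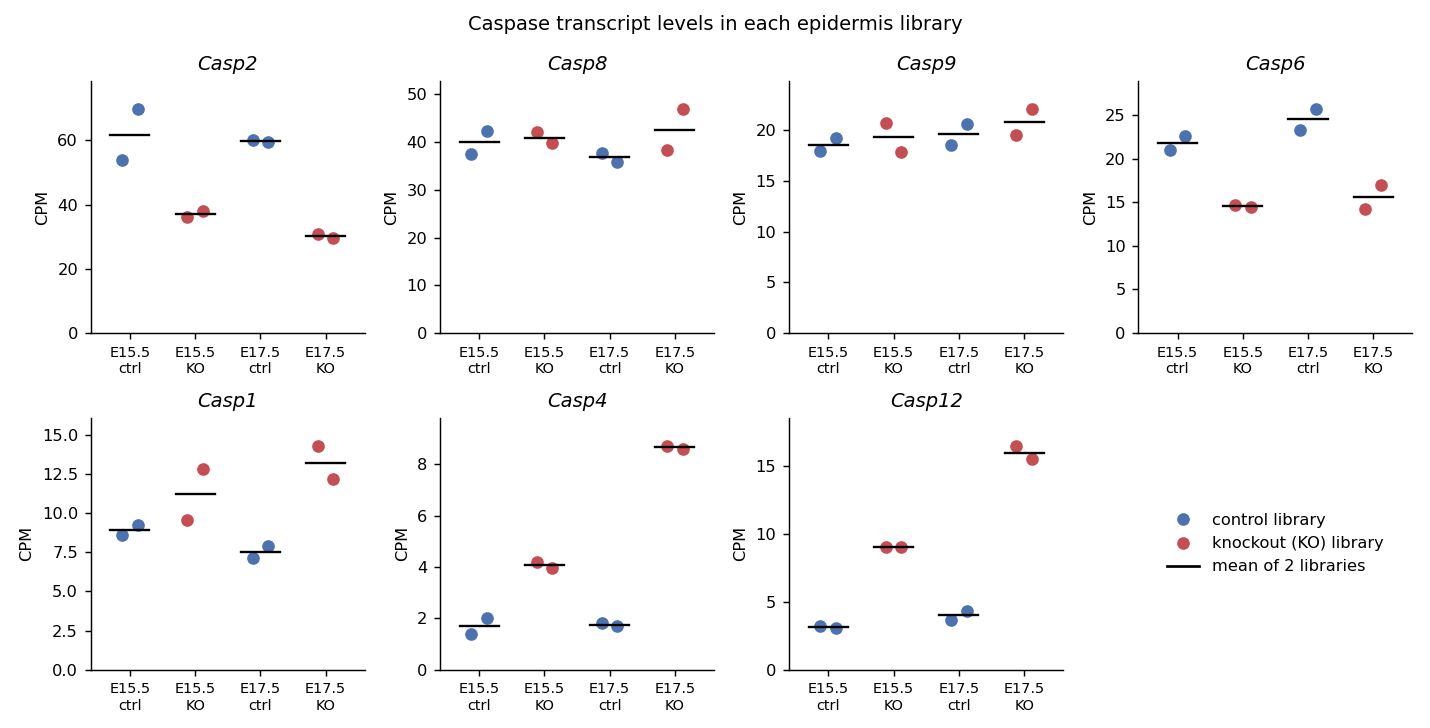
Transcript level of each caspase gene in every library, in CPM on linear axes that start at 0, with 1 point per library (blue, control; red, knockout, KO) and a bar at the mean of the 2 libraries of a group. Casp4 and Casp12 were higher in every knockout library than in any control library, and Casp2 and Casp6 were lower.

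Casp4, the mouse caspase activated directly by cytosolic lipopolysaccharide, rose at both stages and by more than the other 6 genes at E17.5. It was at 1.40 and 2.00 CPM in the control at E15.5, and the knockout libraries of that stage had 4.18 and 3.98 CPM. At E17.5 it was at 1.81 and 1.70 CPM in the control and at 8.73 and 8.62 CPM in the knockout. Every knockout library was above every control library, and those of E17.5 stood above those of E15.5. The log2 fold change was 1.26 ± 0.25 (SE, n = 2 against 2), or 2.40-fold, at E15.5 (edgeR adjusted p = 0.0014) and 2.30 ± 0.24, or 4.93-fold, at E17.5 (adjusted p = 1e-05). These values rest on the fewest counts among the 7 genes, with 37 and 52 in the control at E15.5 and 239 and 240 in the knockout at E17.5.

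Casp12, its neighbour on chromosome 9, followed the same order. It was at 3.21 and 3.11 CPM in the E15.5 control and at 9.03 and 9.01 CPM in the E15.5 knockout. At E17.5 it was at 3.70 and 4.30 CPM in the control and at 16.5 and 15.49 CPM in the knockout. The groups did not overlap, and the libraries within a group lay close together. Casp12 rose by 1.51 ± 0.18 on the log2 scale (2.85-fold, edgeR adjusted p = 3.6e-05) at E15.5 and 1.99 ± 0.17 (3.99-fold, adjusted p = 2.3e-06) at E17.5.

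Casp1, the inflammasome protease that matures interleukin-1 beta, moved less. Its levels were 8.57 and 9.26 CPM in the E15.5 control and 9.59 and 12.8 CPM in the E15.5 knockout. At E17.5 they were 7.14 and 7.93 CPM in the control and 14.3 and 12.2 CPM in the knockout. At both stages the knockout libraries were above the control libraries, but at E15.5 the higher control library nearly reached the lower knockout library. Its log2 fold change of 0.33 ± 0.18 at E15.5 (95% interval -0.07 to 0.73, edgeR adjusted p = 0.16) was not called, and that of 0.81 ± 0.18 at E17.5 (1.75-fold, adjusted p = 0.0028) was. The E15.5 value was 0.10 without the second E15.5 knockout library and 0.52 without the first, and was called in neither case.

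The rises of these inflammatory caspases came with higher levels of myeloid genes. All 9 tested markers of myeloid and Langerhans cells rose at both stages, with median log2 fold changes of 1.12 and 1.62, and 1 of the 10 markers in the files, the Langerhans cell gene Cd207, was at 0 in every library. Their summed level was 237 to 242 CPM in the control and 528 to 531 CPM in the knockout at E15.5, and 258 to 276 against 827 to 950 CPM at E17.5. Per 1000 CPM of these markers, Casp12 stood at 12.9 to 13.6 CPM in the control and 17 to 17.1 CPM in the knockout at E15.5, and at 14.3 to 15.6 against 17.3 to 18.7 CPM at E17.5. So Casp12 was higher in the knockout also relative to the marker sum, with no overlap of libraries. Casp4 on that scale was at 5.90 to 8.25 CPM in the control and 7.53 to 7.87 CPM in the knockout at E15.5, where the ranges overlapped, and at 6.16 to 7.02 against 9.18 to 10.4 CPM at E17.5, where they did not. Casp1 ran the other way, from 36.2 to 38.2 CPM in the control to 18.0 to 24.2 CPM in the knockout at E15.5, and from 27.6 to 28.7 to 14.7 to 15 CPM at E17.5. What part the myeloid markers have in these rises was not tested beyond these ratios.

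The promoters of the pair that rose at both stages are shown because both genes moved together. They are the 250 bases before the transcription start of the RefSeq annotation of GRCm38.p6, on the plus strand, with motif matches in capitals. The GENCODE transcript of Casp12 starts inside its window, as does the gene span given above.
Casp4 (chr9:5308599-5308848): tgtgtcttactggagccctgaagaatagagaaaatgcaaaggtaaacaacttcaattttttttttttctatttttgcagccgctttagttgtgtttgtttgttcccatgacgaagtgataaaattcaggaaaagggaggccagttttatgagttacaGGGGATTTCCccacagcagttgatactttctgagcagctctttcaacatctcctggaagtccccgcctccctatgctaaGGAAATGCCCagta
Casp12 (chr9:5345226-5345475): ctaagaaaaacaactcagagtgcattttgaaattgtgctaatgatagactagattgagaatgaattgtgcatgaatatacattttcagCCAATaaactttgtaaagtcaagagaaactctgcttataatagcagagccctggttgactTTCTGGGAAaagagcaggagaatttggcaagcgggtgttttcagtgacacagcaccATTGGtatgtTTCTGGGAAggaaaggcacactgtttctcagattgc
Both strands were searched for the TATA box TATAAA, the GC box GGGCGG, the CCAAT box, the NF-kB motif (GGG and TTTCC with 2 free bases between), the interferon-stimulated response element core (GAAA and GAAA with 2 free bases between), the gamma-activated site TTCNNNGAA and the p53 decamer. They occurred in 12.4%, 32.7%, 33.8%, 1.4%, 3.0%, 7.0% and 7.1% of the 32851 mouse promoter windows of this length. The Casp4 window held 2 matches to the NF-kB motif, at -93 on the plus strand and at -14 on the minus strand, counted from the start. The Casp12 window held 2 matches to TTCNNNGAA, which reads alike on both strands, at -102 and -36, and 2 CCAAT boxes, with no overlap between them. The match at -36 lies across the start of the gene span given above. The window of Casp1 held none of the motifs searched. The GC content was 41.6% for Casp4, 39.2% for Casp12, 49.2% for Casp1 and 39.6% for Casp8, all below the median of 52.4% over all windows, and 60.4%, 58.4% and 66.0% for Casp2, Casp6 and Casp9. The Casp8 window (58802252 to 58802501) lies inside the gene span given above, and the Casp2 window (to 42264984) ends past the start given above. A match of letters describes the window it lies in and shows no binding.

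Casp2, the initiator caspase of the PIDDosome, fell. It was at 53.9 and 69.8 CPM in the E15.5 control and at 36.2 and 38.0 CPM in the E15.5 knockout. At E17.5 it was at 60.1 and 59.5 CPM in the control and at 30.9 and 29.5 CPM in the knockout. All knockout libraries were below all control libraries, although the E15.5 control libraries were far apart. The log2 fold change was -0.74 ± 0.13 at E15.5 (0.601 of the control level, edgeR adjusted p = 0.0006) and -0.99 ± 0.13 at E17.5 (0.505 of the control level, adjusted p = 5.5e-05).

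Casp6, an executioner caspase known to cut nuclear lamins, fell alongside it. It was at 21.0 and 22.6 CPM in the E15.5 control and at 14.7 and 14.5 CPM in the E15.5 knockout. At E17.5 it was at 23.3 and 25.7 CPM in the control and at 14.2 and 17 CPM in the knockout. Knockout and control libraries did not overlap at either stage. Its log2 fold change was -0.58 ± 0.13 at E15.5 (0.668 of the control level, edgeR adjusted p = 0.0042) and -0.65 ± 0.13 at E17.5 (0.635 of the control level, adjusted p = 0.0015).

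Keratinocyte markers fell at the same time and by more. All 9 basal keratinocyte markers fell at both stages, with median log2 fold changes of -1.91 and -3.44, and so did all 10 suprabasal markers, with medians of -3.11 and -5.23. Per 1000 CPM of the basal markers, Casp2 was higher in the knockout, at 18.4 to 18.6 CPM against 7.11 to 9.80 CPM in the control at E15.5 and at 24.8 to 26.9 against 7.71 to 7.82 CPM at E17.5. On the same scale Casp6 was at 7.07 to 7.43 CPM in the knockout against 2.77 to 3.17 CPM in the control at E15.5, and at 12.3 to 14.3 against 3.04 to 3.33 CPM at E17.5. The part of the lower keratinocyte markers in the lower levels of Casp2 and Casp6 was not tested.

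Casp8, the initiator caspase of death receptors, was at 37.5 and 42.4 CPM in the E15.5 control and at 42.0 and 39.8 CPM in the E15.5 knockout. At E17.5 it was at 37.6 and 35.9 CPM in the control and at 38.3 and 46.9 CPM in the knockout. The groups overlapped at E15.5, and at E17.5 the knockout libraries lay above the control libraries, the lower of them by a narrow margin. The log2 fold change was 0.03 ± 0.12 at E15.5 (95% interval -0.24 to 0.31, edgeR adjusted p = 0.84) and 0.21 ± 0.12 at E17.5 (-0.06 to 0.48, adjusted p = 0.17). The E17.5 value was 0.04 without the second E17.5 knockout library and 0.33 without the first, and was called in neither case. Casp8 was the only one of the 7 genes with a second transcript in the tables, and that transcript had 89.4% to 93.5% of the counts of the one used.

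Casp9, the initiator caspase of the apoptosome, was at 18.0 and 19.2 CPM in the E15.5 control and at 20.7 and 17.9 CPM in the E15.5 knockout. At E17.5 it was at 18.6 and 20.6 CPM in the control and at 19.5 and 22.1 CPM in the knockout. The groups overlapped at both stages. Its log2 fold change was 0.05 ± 0.13 at E15.5 (95% interval -0.24 to 0.34, edgeR adjusted p = 0.78) and 0.08 ± 0.13 at E17.5 (-0.21 to 0.37, adjusted p = 0.62). These intervals leave room for changes of about the size measured for Casp8 but not for changes of the size measured for Casp2 or Casp6. Exons of Casp9 overlap the pancreatic protease genes Ctrc and Cela2a on the opposite strand by 94 bases, and those genes were at 0 CPM and at 0.211 to 0.481 CPM.

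**Figure D2:**
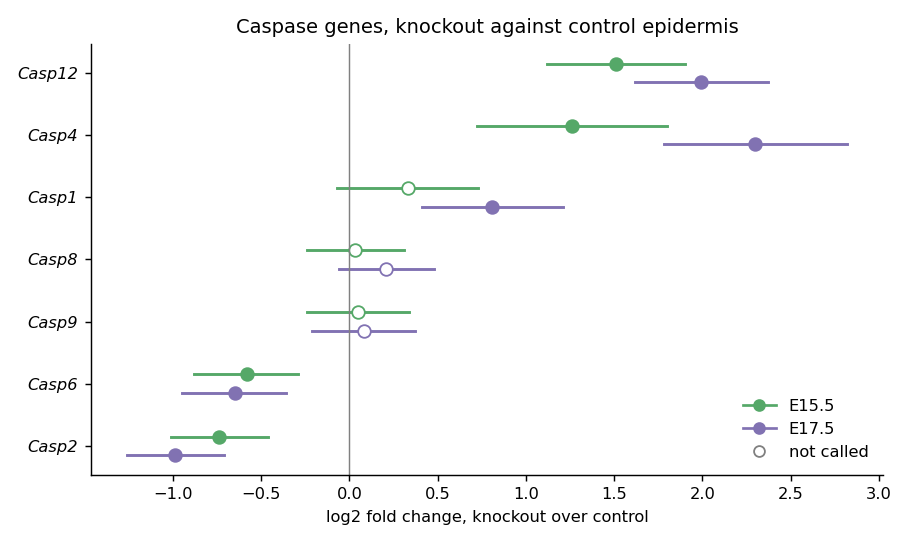
Log2 fold change of each caspase gene, knockout over control, at E15.5 (green) and E17.5 (purple), with 95% intervals from edgeR's fit on 2 libraries per group. Open points were not called. Casp12 and Casp4 lie to the right of 0 at both stages, Casp6 and Casp2 to the left, and the intervals of Casp8 and Casp9 span 0.

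For none of the 7 caspases was the knockout effect shown to differ between the stages. In edgeR's test of the difference, 0 of the 7 genes were called, against 4.35% of all genes (1.88% higher and 2.47% lower at E17.5). DESeq2 and limma-voom also called 0, and 1 gene, Casp4, had an unadjusted p below 0.05. The effect on Casp4 was larger at E17.5 by 1.04 ± 0.34 on the log2 scale (95% interval 0.29 to 1.79, edgeR adjusted p = 0.13). For Casp12 the difference was 0.48 ± 0.24 (-0.05 to 1.02, adjusted p = 0.34) and for Casp1 it was 0.48 ± 0.26 (-0.08 to 1.04, adjusted p = 0.37).

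Between the stages, no change of a caspase was shown in the control epidermis. From E15.5 to E17.5 in the control, 0 of the 7 genes were called by edgeR, DESeq2 or limma-voom, against 10.9% of all genes by edgeR (3.15% risen and 7.7% fallen), and 0 had an unadjusted p below 0.05. The log2 changes ran from -0.24 for Casp1 (95% interval -0.64 to 0.16) to 0.34 for Casp12 (-0.06 to 0.74). For Casp4 the interval was -0.52 to 0.62, so changes of some size are not excluded. In the knockout, 2 of the 7 (28.6%) rose from E15.5 to E17.5, against 6.19% of all genes, and 0 fell, against 6.91%, with 13.1% of all genes called. These were Casp4, by 1.09 ± 0.22 (edgeR adjusted p = 0.0065), and Casp12, by 0.82 ± 0.16 (adjusted p = 0.005). Both calls rested on single libraries: without the first E17.5 knockout library neither was called (adjusted p = 0.052 and 0.055), and without the second E15.5 knockout library Casp4 was not (adjusted p = 0.055), although the log2 changes stayed at 1.04 or above for Casp4 and at 0.77 or above for Casp12. The stage and knockout comparisons share libraries and are not independent of each other.

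Per length of transcript, the rank order of the caspases differed between genotypes. In the E15.5 control, Casp2 (17.51 CPM per kb), Casp8 (15.45) and Casp6 (14.96) were the most abundant, and their libraries overlapped from each gene to the next. Casp1 (5.95 CPM per kb) and Casp9 (4.77) came next, and Casp12 (1.19) and Casp4 (1.18) were lowest and overlapped each other. In the E15.5 knockout Casp8 led with 15.8 CPM per kb, followed by Casp2 (10.5), Casp6 (9.999), Casp1 (7.48), Casp9 (4.95), Casp12 (3.40) and Casp4 (2.84), with no overlap between neighbours.

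The E17.5 control had the same 3 leading and 2 trailing genes as the E15.5 control, with Casp2 at 16.9, Casp6 at 16.8 and Casp8 at 14.2 CPM per kb, of which Casp2 and Casp6 overlapped. Casp9 and Casp1, both at 5.03 CPM per kb, overlapped, and Casp12 (1.51) and Casp4 (1.22) were again lowest. In the E17.5 knockout Casp8 was at 16.5, Casp6 at 10.7, Casp1 at 8.84, Casp2 at 8.55, Casp4 at 6.05, Casp12 at 6.03 and Casp9 at 5.34 CPM per kb. There Casp1 overlapped Casp2, Casp4 overlapped Casp12, and Casp9 was lowest.

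**Figure D3:**
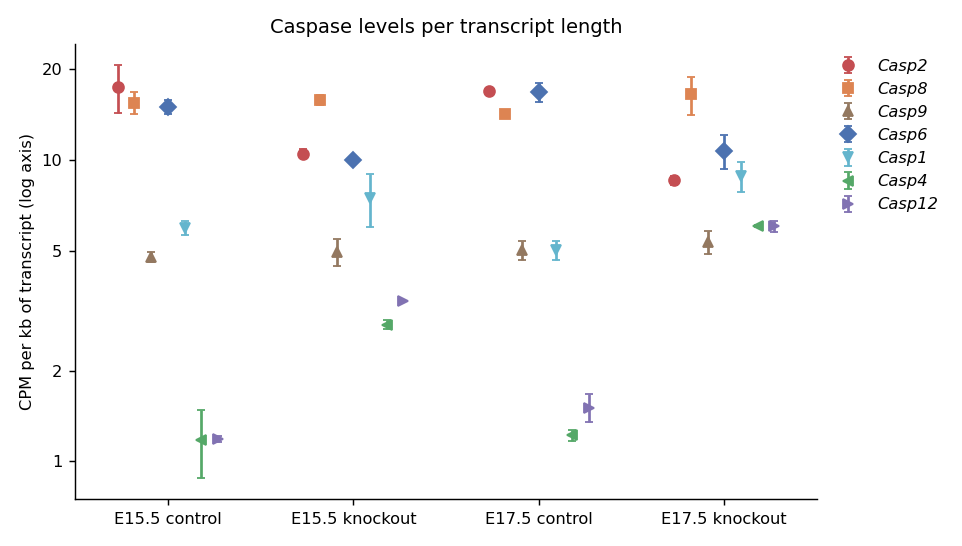
Caspase levels per transcript length in each group, in CPM per kb on a log axis, as the mean of 2 libraries with bars of 1 SD. Casp4 and Casp12, near 1.2 to 1.5 CPM per kb in both control groups, reached 6.05 and 6.03 CPM per kb in the E17.5 knockout, above Casp9.

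Genes with the most similar pattern over the 8 libraries were sought among 13093 genes by Pearson's r of log2 CPM. For Casp4 they included Cyth4 (r = 0.995) and the lysosomal gene Laptm5 (0.995), and for Casp12 they were the actin regulator Wdr1 (0.999), Tbc1d5 (0.997) and the chemokine Ccl9 (0.996). For Casp1 they were Pstpip1 (0.971), Akap7 (0.968) and Ctla2b (0.965). The nearest genes to Casp2 were the checkpoint kinase Chek2 (0.998), the ribosomal protein gene Rpl6 (0.99) and Trit1 (0.99), and those to Casp6 were Med22 (0.995), Cc2d1b (0.994) and Dxo (0.99). For Casp8 (Bdkrb2, Egr1 and Lrrtm3, r = 0.907, 0.895 and 0.891) and Casp9 (Afg3l1, Gfus and Myl6, r = 0.951, 0.948 and 0.944) the likeness was lower. The 8 libraries divide by genotype, and these values only describe them.

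Genes known to act with the caspases were counted over 11 lists. Of 83 genes tested, 30 rose and 11 fell at E15.5 (49.4% called), against the 45.5% of all genes given above. At E17.5, 42 rose and 12 fell (65.1% called), against 53.5% of all genes. Of all genes, 23.2% rose and 22.3% fell at E15.5, and 26.7% rose and 26.7% fell at E17.5. A count near these shares in a list below says little of that list. Values in the next paragraphs are log2 fold changes of the knockout over the control with their SE and edgeR's adjusted p, and the genes named are those of each list with the smallest adjusted p.

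Upstream of Casp9, 3 of 11 genes of the apoptosome and mitochondrial pathway rose and 1 fell at E15.5, and 5 rose and 1 fell at E17.5. Apaf1, the scaffold of the apoptosome, rose by 1.10 ± 0.10 at E15.5 (edgeR adjusted p = 6.9e-06) and by 1.18 ± 0.10 at E17.5 (adjusted p = 2.7e-06). Pmaip1, which encodes the BH3-only protein Noxa, a p53 target, rose by 1.33 ± 0.21 and 1.48 ± 0.21. Htra2 rose by 0.58 and 0.49 and Diablo fell by 0.31 and 0.44. The call of Diablo was lost in 12 of 17 alternative analyses at E15.5 and in 1 at E17.5. That of Htra2 was lost in 1 at E15.5 and in 3 at E17.5. Among 7 genes of the inhibitor of apoptosis family, not all of which inhibit caspases, 3 rose at E15.5, and 3 rose and 1 fell at E17.5. Naip2 rose by 1.65 ± 0.32 and 2.16 ± 0.30 and Naip5 by 2.17 ± 0.41 and 1.89 ± 0.35, and both encode inflammasome sensors of bacterial protein. Birc3 rose by 0.98 ± 0.13 at E17.5 (adjusted p = 6.9e-05), and its call at E15.5 (0.35 ± 0.13) was lost in 7 of 17 alternatives. Xiap, which binds and blocks caspase-9, was at -0.07 ± 0.11 and -0.06 ± 0.11 and was not called.

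Around Casp8, 4 of 11 tested death receptor pathway genes rose and 0 fell at each stage. Ripk1, the kinase recruited to these receptors, rose by 0.47 ± 0.11 (edgeR adjusted p = 0.0038) and 0.55 ± 0.11 (adjusted p = 0.0011). The receptor Fas rose by 1.12 ± 0.27 and 1.0 ± 0.26, the latter lost without the first E17.5 control library or the second E17.5 knockout library. Tnfrsf10b, the mouse TRAIL receptor, rose by 0.98 ± 0.24 at E15.5, a call lost without the first E15.5 knockout library (adjusted p = 0.067), and was at -0.08 ± 0.24 at E17.5. Fadd, the adaptor that binds caspase-8, was at 0.02 ± 0.17 and 0.08 ± 0.17 and was not called. All 3 necroptosis genes, a form of death that caspase-8 restrains, rose at both stages. The sensor Zbp1 rose by 2.24 ± 0.51 and 3.10 ± 0.40, the pore protein gene Mlkl by 0.87 ± 0.27 and 1.36 ± 0.26, and the kinase gene Ripk3 by 0.58 ± 0.16 and 0.51 ± 0.15. The Ripk3 calls and the E15.5 call of Mlkl were lost without some single libraries. Of the 3 genes of the PIDDosome list, which serves Casp2, Pidd1 fell by 0.48 ± 0.17 at E17.5 (adjusted p = 0.033), a call lost in 4 of 17 alternatives.

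The inflammasome activates Casp1. Its list, which also takes in related genes such as Nod1, Card9 and P2rx7, split. Of 13 genes tested, 2 rose and 3 fell at E15.5 and 6 rose and 3 fell at E17.5. The adaptor Pycard, which joins sensors to caspase-1, fell by 1.40 ± 0.11 at E15.5 (edgeR adjusted p = 2.5e-06) and by 1.35 ± 0.11 at E17.5 (adjusted p = 2.2e-06). Nlrp10 fell by 2.66 ± 0.19 and 4.13 ± 0.22, and Nod1 fell by 1.34 ± 0.11 and 0.32 ± 0.10, the latter lost without the first E17.5 control or the second E17.5 knockout library. Among those that rose, the ATP receptor gene P2rx7 changed by 1.2 ± 0.15 and 1.0 ± 0.14. Card9 (2.29 ± 0.42) and Nlrp1a (2.33 ± 0.52) rose at E17.5. Nlrp3 rose by 1.09 ± 0.37 at E15.5, a call lost without any 1 of the 4 E15.5 libraries. At E17.5 Nlrp3 rose by 1.49 ± 0.35 (edgeR adjusted p = 0.004).

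Substrates and partners of the inflammatory caspases also moved in both directions, with 4 of 10 risen and 4 fallen at E15.5 and 6 risen and 4 fallen at E17.5. Gsdmd, the pore-forming substrate of caspase-1 and caspase-4, rose by 0.94 ± 0.19 (edgeR adjusted p = 0.0021) and 1.42 ± 0.19 (adjusted p = 8.1e-05), from a mean of 11 to 21.0 CPM and from 11.3 to 30.2 CPM. The guanylate-binding proteins that bring mouse caspase-4 to bacteria followed, with Gbp2 up by 2.04 ± 0.20 and Gbp3 by 2.07 ± 0.26 at E17.5. At E15.5 Gbp2 was up by 0.71 ± 0.22 (edgeR adjusted p = 0.019) and Gbp3 by 1.22 ± 0.29. The E15.5 call of Gbp3 was lost without the second E15.5 control library (log2 fold change 0.98). Il33 rose by 1.33 ± 0.24 at E15.5 and by 1.73 ± 0.25 at E17.5 (edgeR adjusted p = 0.00012). Il18, a cytokine that caspase-1 matures, fell by 1.96 ± 0.14 and 1.93 ± 0.14, from a mean of 113 to 29.0 CPM and from 49.2 to 12.9 CPM. Il1rn, the interleukin-1 receptor antagonist, fell by 3.16 ± 0.15 and 2.99 ± 0.16. The keratinocyte cytokine gene Il1a fell by 3.06 ± 0.30 at E15.5, and Gsdma, an epithelial gasdermin, fell by 2.94 ± 0.24 at E17.5. The markers of myeloid cells rose and those of keratinocytes fell in the same libraries, as given above, and their part in these changes was not tested.

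Among targets of the executioner caspases, Dffa, the inhibitor of the caspase-activated nuclease, fell by 0.57 ± 0.11 at E15.5, and the lamin gene Lmna rose by 0.61 ± 0.13 at E17.5. Casp14, the caspase of cornification, fell from 779 ± 61 (SD, n = 2) to 79.3 ± 13 CPM at E15.5 and from 482 ± 110 to 15.9 ± 0.2 CPM at E17.5 (log2 fold changes -3.30 ± 0.17 and -4.92 ± 0.19, edgeR adjusted p = 9.1e-08 and 5.3e-09). All 10 suprabasal markers fell in the same libraries.

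Endoplasmic reticulum stress genes are often studied with Casp12 in mice, and 2 of 8 rose at E15.5, near the 23.2% of all genes. At E17.5, 5 of 8 rose, against 26.7% of all genes, and 0 fell at either stage. Eif2ak3, the stress kinase PERK, rose by 0.90 ± 0.10 (edgeR adjusted p = 3e-05) and 0.96 ± 0.10 (adjusted p = 1.3e-05). Atf6 and Ern1, the other two sensors, rose by 0.57 ± 0.12 and 0.78 ± 0.19 at E17.5. Hspa5, the chaperone BiP, rose by 0.50 ± 0.14 at E15.5 and by 0.48 ± 0.14 at E17.5 (edgeR adjusted p = 0.014). Its E15.5 call was lost without the second E15.5 control library or the first E15.5 knockout library. Ddit3, the stress factor CHOP, was not called (0.26 ± 0.16 and 0.28 ± 0.16). All 7 interferon response genes rose at both stages, with medians of 1.55 and 2.44. Irf1 rose by 1.54 ± 0.21 at E15.5, and Ifit3 by 2.08 ± 0.30 and 2.63 ± 0.27. Irf7 rose by 2.44 ± 0.25 at E17.5.

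**Figure D4:**
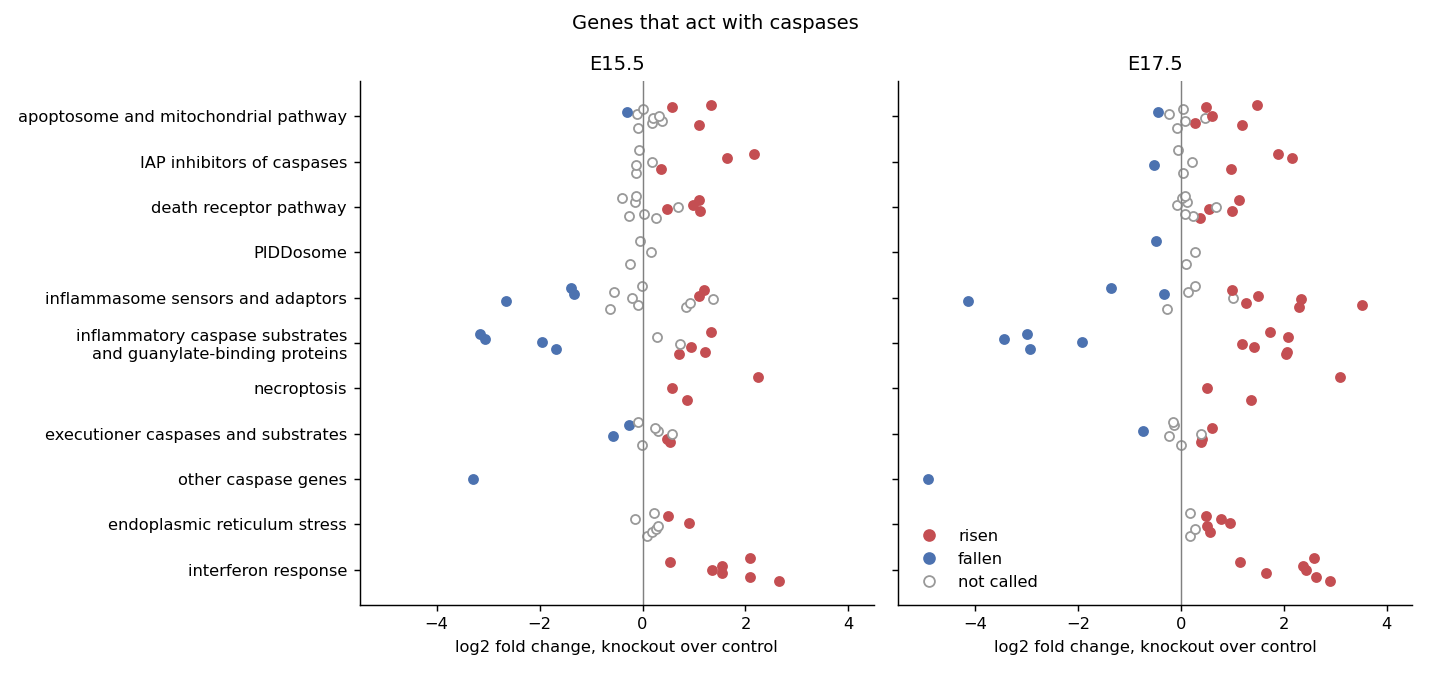
Log2 fold change, knockout over control, of each tested gene on the 11 lists of genes known to act with caspases, at E15.5 (left) and E17.5 (right), with risen genes in red, fallen genes in blue and genes not called as open points. All 7 interferon genes and all 3 necroptosis genes lie to the right of 0, while genes of the inflammasome and substrate lists lie on both sides.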

How the data were processed

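RNA-seq of mouse epidermis was analysed from whole-number read counts per RefSeq transcript, which the authors deposited without normalization, 1 table per library. Reads were aligned to mm10 with TopHat version 2 and counted with HOMER, per the series design text and the submitters' processing notes; the sources used here do not give HOMER's version, its strand setting or its handling of reads that match several places, so a gene and an overlapping neighbour on the other strand may share counts. Tables that join the libraries of a stage were not used.

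Of 30521 transcripts, 29908 were named from the RefSeq table of GRCm38.p6 and 182 from GENCODE M21. The 431 without a name (2.08% of counts) entered neither library sizes nor tests. The transcript with the largest total stood for each of 23146 genes, of which 4170 had more than 1. Library totals were 25226357 to 28895657 counts.

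In edgeR 4.0.16 (R 4.3.3), filterByExpr kept 16342 genes, including all 7 caspases. After TMM scaling, the quasi-likelihood fit took all 8 libraries, with a mean for each of the 4 groups. The call threshold was a Benjamini-Hochberg adjusted p of 0.05. The SE is the log2 fold change divided by the root of the test's F, and 95% intervals use t quantiles at the fit's 11.2 degrees of freedom. Fits were tested on simulated data. Alternatives used limma 3.58.1, DESeq2 1.42.0, other scalings and filters, and leave-one-out fits; those on the pathway lists were added after seeing the data. The caspases and all lists were chosen with earlier results of these data known. Named pathway genes are, per list and comparison, up to 3 risen and 3 fallen with the smallest adjusted p. Others named (Xiap, Fadd and Ddit3) were chosen after their values were seen. Values at the other stage were added for Nlrp3, Hspa5, Il33, Gbp2 and Tnfrsf10b. These added values are not among the named calls followed over the alternatives. Some genes of the lists are counted but not reported here by name.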

Additional observations from a re-analysis of the deposited data

Results flagged for a closer look

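By edgeR's test of the difference, 5 of 83 tested pathway genes (6.02%) had a knockout effect that differed between E15.5 and E17.5. That share was near the 4.35% of all genes tested. None of the 7 caspases described had such a difference. For Casp14 the log2 fold change was lower at E17.5, with a difference of -1.63 ± 0.23 (adjusted p = 0.0025). For Nod1 it was higher, by 1.01 ± 0.15 (adjusted p = 0.0028). Both calls held in all 16 alternatives. For Nlrp10 the difference was -1.47 ± 0.28 (adjusted p = 0.013), a call lost with limma-voom and without the first E15.5 control library (highest adjusted p = 0.056). For Gbp2 it was 1.32 ± 0.29 (adjusted p = 0.028) and for Gsdma -1.27 ± 0.31 (adjusted p = 0.045), and each of these calls was lost in 8 of the 16 alternatives, most of them leaving out 1 library.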

How the results depend on the processing

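Across 17 alternatives, no call of a caspase changed in either knockout comparison (238 values recomputed), and 5 values changed sign, all of Casp8 or Casp9, which were not called. At E15.5 leaving out single libraries gave -0.05 to 0.125 for Casp8 and -0.06 to 0.149 for Casp9. At E17.5 Casp9 ran from -0.028 to 0.16, and was -0.128 with library totals in place of TMM, which moved the median of all genes to -0.235. In the difference between stages, library totals gave -0.035 for Casp8 and -0.179 for Casp9, and leave-outs gave -0.227 to 0.034 for Casp6 and -0.086 to 0.124 for Casp9. In the control, library totals gave 0.144 for Casp2 and 0.071 for Casp8, and leave-outs gave -0.221 to 0.149 for Casp2, -0.184 to 0.328 for Casp4 and -0.001 to 0.15 for Casp9. In the knockout, leave-outs gave -0.044 to 0.216 for Casp6, -0.102 to 0.189 for Casp8 and 0 to 2 caspases risen. The causes were not tested. Leave-outs gave 377 to 716 genes called (711 with all libraries) in the difference, 666 to 1776 (1774) in the control and 1160 to 2256 (2142) in the knockout. With replicate numbers as a block, 4 and 5 caspases were called, as without it. Replicate-1 deviations correlated by -0.07 to 0.04 between groups, so no pairing by replicate number was seen. Litters or batches that do not follow the number would not show in these values. A fit of only the groups compared was not run for the difference, which uses all groups. Of named pathway genes, 22 of 34 calls at E15.5 and 27 of 38 at E17.5 held in all alternatives. Parp1, fallen by 0.27 at E15.5, lost its call in 14 of 17. Casp4, with 37 counts in its lowest library, was the least precisely measured.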

Other observations

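Many genes that act with caspases changed between the stages. Of the 83 tested, 17 rose and 6 fell from E15.5 to E17.5 in the knockout (27.7% called, against 13.1% of all genes), and 4 rose and 10 fell in the control (16.9%, against 10.9%). The lists were chosen with results of these data known, and these shares are descriptions. In the knockout, Il1b, the cytokine that caspase-1 matures, rose by 2.82 ± 0.44 on the log2 scale (edgeR adjusted p = 0.0013), Zbp1 by 2.47 ± 0.38 (adjusted p = 0.0012), Gbp3 by 1.96 ± 0.26 (adjusted p = 0.0004) and Gbp2 by 1.84 ± 0.20 (adjusted p = 7.8e-05). Il18 fell in both genotypes, by 1.17 ± 0.14 in the knockout (edgeR adjusted p = 0.0002) and by 1.2 ± 0.13 in the control (adjusted p = 0.00042). Each of these calls held in all 17 alternatives.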
